A study of Hordeum vulgare with 12 samples.

Results

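The genes described here are the barley members of the basic helix-loop-helix (bHLH) family of transcription factors, together with a gene similar to Arabidopsis PRE6. They were chosen by description: a gene was a member if its description in the authors' deposited table held "bHLH" or "helix-loop-helix", or if it was the PRE6-like gene HORVU.MOREX.r2.7HG0552630.1. Of 250 such genes, 140 had at least 10 reads in 3 or more of the 12 libraries and were kept. The table as a whole lists 63658 genes. Of the 110 genes not kept, 64 had no read in any library and 46 had at least 1 read, with at most 96 reads summed over the 12 libraries. Of the 140 members, 109 had 10 or more reads in every library. At the edge of the read rule, 4 members had 10 reads in exactly 3 libraries, and 5 genes left out had them in 1 library fewer.

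All libraries came from the crown, the 2 mm junction of roots and stem, of barley seedlings (Hordeum vulgare, cultivar Golden Promise) grown in a system that induces crown roots, which cereals form on the stem base. Every seedling spent 3 days in the cold, 3 days of germination and 3 days of hydroponics on 50 µM NPA, which blocks polar auxin transport. The 0 h crowns were taken from this solution, and the others at 30 min, 1 h and 3 h after it was replaced by 50 µM 1-NAA, a synthetic auxin, with 3 libraries of 5 pooled crowns at each time. Crowns left on NPA at the later times are not among the samples, so auxin, the loss of NPA, the new solution and the hour of the day cannot be told apart. A crown holds many cell types, and in such bulk samples fewer cells of a type cannot be told apart from less RNA per cell. Between 16093892 and 34019480 reads per library were assigned to genes.

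Basic helix-loop-helix proteins bind DNA as dimers: the basic stretch contacts the E-box element and the helix-loop-helix holds the partners together. Small members that lack the basic stretch, such as the PRE proteins of Arabidopsis, bind no DNA and act by pairing with other members. In Arabidopsis the PRE proteins take up inhibitors such as IBH1 and so free activators of cell elongation of the HBI1, BEE, CIB and ACE type. Other branches act in vascular tissue (TMO5 and LHW), light signalling (the PIF proteins), jasmonate responses (MYC2 and its relatives), iron uptake (FIT and ILR3), root hairs (RHD6) and stomata (SPCH).

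In the text each member is called by its first Arabidopsis homolog in the authors' deposited table, which listed one for 102 of the 140 members and a rice homolog for 95. By these names 53 members fell into 14 classes and 87 into none. The members lie on all barley chromosomes, from 8 on 1H to 25 on 5H, and 2 on unplaced sequence. None shares its span with another gene model of the table. All 140 model lengths are multiples of 3, as are 98.9% of all lengths in the table, so they are coding lengths; whether reads in untranslated regions were counted was not stated.

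Levels ranged widely. CPM are read counts scaled to library size, and FPKM, used to compare genes, are CPM per kilobase of coding length. Over the 12 libraries the members' mean FPKM ran from 0.226 to 119 with a median of 6.55; 23 members were under 1 and 55 over 10. The most abundant was the bHLH93 homolog HORVU.MOREX.r2.7HG0620900.1, at a mean FPKM of 117 at 0 h and 120 at 3 h. The ILR3 homolog HORVU.MOREX.r2.2HG0114000.1, related to an Arabidopsis regulator of iron homeostasis, followed at 106 and 113 FPKM. Next came the UNE12 homolog HORVU.MOREX.r2.5HG0431970.1 (99.3 and 129 FPKM at 1 h and 3 h), the PIF3 homolog HORVU.MOREX.r2.2HG0162200.1 (108 and 117 FPKM at 0 h and 3 h) and HORVU.MOREX.r2.3HG0222250.1, for which no homolog is listed (92.2 and 117 FPKM at the same times). None of these 5 was called by edgeR in any comparison, and DESeq2 called only the UNE12 homolog over the time course (adjusted p = 0.0455). The UNE12 homolog came nearest: its 3 h libraries, at a mean of 109 ± 6.07 CPM (SD, n = 3), lay above the other 9, which ran from 75.9 to 99.6 CPM, and the log2 fold change against 0 h was 0.35 ± 0.125 (SE; adjusted p from edgeR 0.262).

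The quasi-likelihood test of edgeR was run on all 24920 genes with enough reads, and a gene is called when its Benjamini-Hochberg adjusted p is under 0.05. The comparisons with 0 h share the 3 libraries of 0 h. Of the 140 members 138 were tested. Over the whole time course 15 of the 138 were called, 10.9%, against 2.3% of all tested genes. At 3 h against 0 h 13 members were called, 8 higher and 5 lower, where 2.48% of all tested genes were called (1.68% higher and 0.799% lower). At 3 h against 1 h 13 members were called, 7 higher and 6 lower, against 2.08% of all genes (1.19% higher and 0.887% lower). In all, 18 members were called in at least 1 of the 5 comparisons, and the heat map of called genes shows them library by library. The share of all tested genes called in at least 1 comparison was not computed, so this count is not read as a result. In 13 members (9.42%) all 3 libraries of 3 h lay above the other 9, against 3.1% of all tested genes, and in 14 (10.1%) they lay below, against 2.61%. The PRE6-like gene was chosen by name with earlier results of these data known, and met the read rule only through its 3 h libraries. It is counted in the 15, among those called higher at 3 h and among the 13 with the 3 h libraries above.

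**Figure D1:**
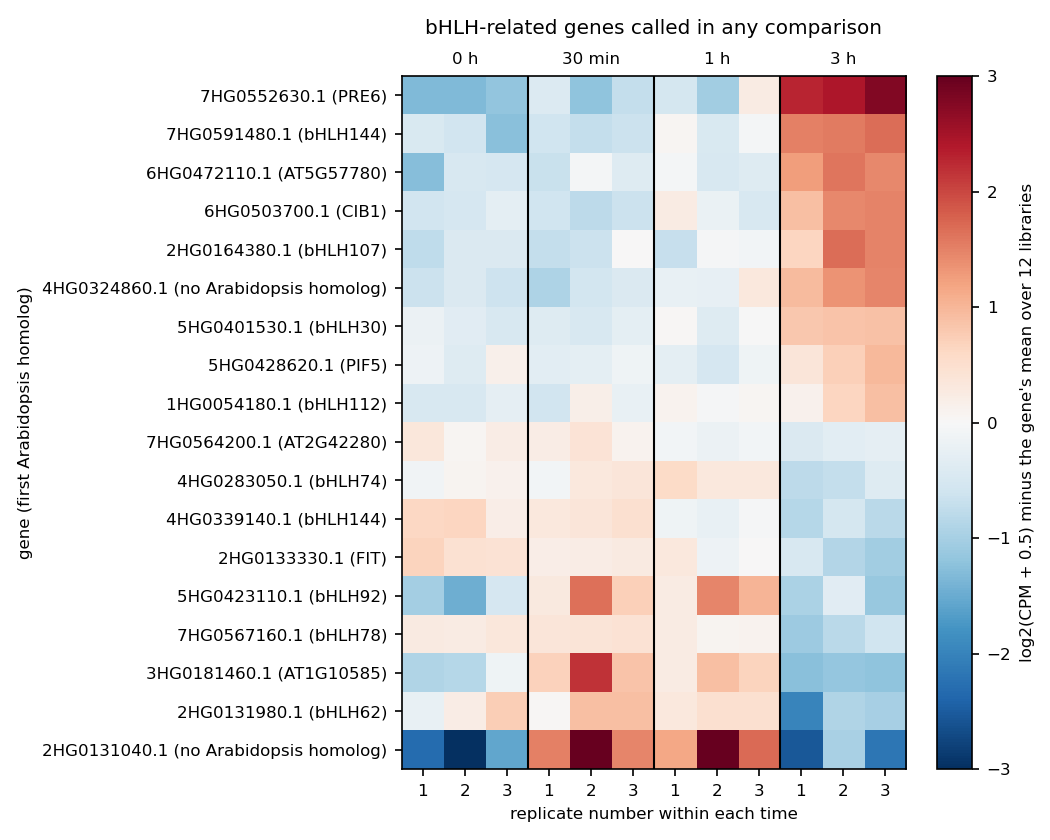
Each row is one of the 18 members called in any comparison (identifiers without the prefix HORVU.MOREX.r2, with the first Arabidopsis homolog), each column one of the 12 libraries; colour gives log2(CPM + 0.5) minus the gene's mean over the 12 libraries. Rows at the top are highest in the 3 libraries of 3 h, rows at the bottom lowest there, and 2HG0131040, 3HG0181460 and 5HG0423110 are highest at 30 min and 1 h.

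At 30 min and 1 h edgeR made no call among the members. It called 0 members at 30 min (0.00401% of all genes) and 0 at 1 h (0.0963% of all genes). At an unadjusted p under 0.05 there were 18 members (13.0%) at 30 min, against 4.39% of all genes, and 21 (15.2%) at 1 h, against 5.75%. DESeq2 called 4 members at 30 min, against 0.386% of all genes, and 2 at 1 h, against 0.527%, all of them higher than at 0 h. They were HORVU.MOREX.r2.2HG0131040.1 and HORVU.MOREX.r2.5HG0423110.1 at both times, and HORVU.MOREX.r2.3HG0181460.1 and HORVU.MOREX.r2.3HG0235270.1 at 30 min, all described below with their libraries.

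At 3 h the members as a group lay slightly lower than the rest. Their median log2 fold change was -0.13 against 0 h and -0.21 against 1 h, while the medians of all tested genes were -0.00 and -0.01. Of the 138 members, 67 (48.6%) had their lowest mean at 3 h, where 32.2% of all genes did. The highest mean stood at 0 h in 30 members (21.7%, against 22.0% of all genes) and at 30 min in 31 (22.5%, against 20.1%). It stood at 1 h in 40 (29.0%, against 27.0%) and at 3 h in 37 (26.8%, against 30.9%), shares near those of all genes. Replicate 1 of 3 h was the lowest of all 12 libraries for 33 members (23.9%, against 17.4% of all genes) and replicate 3 of 3 h for 26 (18.8%, against 11.4%), while replicate 2 was so for 5 (3.62%, against 5.77%).

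The PRE6-like gene was close to absent before the change of solution and present at 3 h. HORVU.MOREX.r2.7HG0552630.1 lies on 7H (87980391 to 87980884, plus strand) and codes for a small protein, with a coding length of 273 bases. Its reads were 0, 0 and 2 in the 3 libraries of 0 h, 8, 1 and 7 at 30 min, 8, 3 and 29 at 1 h, then 123, 155 and 195 at 3 h. In CPM the 3 h libraries stood at 5.66, 6.29 and 8.04, while the highest of the other 9 was 0.982, so the groups did not overlap. Over the group, 473 reads at 3 h against 2 at 0 h gave a ratio of 258 after scaling, with an exact counting interval (95%) from 71.1 to 2139. The ratios at 30 min and 1 h were 9.10 (2.14 to 81.6) and 19.7 (5.11 to 168) and their tests did not pass (edgeR adjusted p = 0.984 and 0.524). These intervals cover counting error only. The gene was called over the time course (edgeR adjusted p = 0.000948), at 3 h against 0 h (0.000996) and at 3 h against 1 h (log2 fold change 3.74 ± 0.687, adjusted p = 0.0163). Because it was chosen with earlier results known and kept only through its 3 h libraries, these calls are no independent support for its rise. The call against 1 h was lost without replicate 1 or replicate 2 of 1 h (adjusted p = 0.0845 and 0.0529) or replicate 2 or replicate 3 of 3 h (0.0509 and 0.0589), and the other 2 calls held in all 12 fits that left out 1 library. No other member had a PRE gene as its first Arabidopsis homolog, and none had an antagonist such as IBH1, AIF, PAR or UPB1. This covers only the 102 of 140 members with a listed Arabidopsis homolog. Genes of these kinds that are described in other words are not members, so their presence in the crown was not examined.

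The branch that PRE proteins act on in Arabidopsis, the HBI1, BEE, CIB and ACE type, split in direction. Of its 9 members, 1 was called higher and 2 lower at 3 h against 0 h, and against 1 h 1 higher and 3 lower. Of all tested genes, 1.68% were called higher and 0.799% lower against 0 h, and 1.19% and 0.887% against 1 h. The riser was the homolog of CIB1, which binds a cryptochrome in Arabidopsis (HORVU.MOREX.r2.6HG0503700.1, 6H, 472589578 to 472591434). It stood at 15.4, 16.1 and 19.0 CPM at 0 h, 15.2, 13.2 and 14.7 at 30 min, 27.9, 20.3 and 16.5 at 1 h, then 43.8, 63.9 and 65.7 at 3 h. All 3 libraries of 3 h lay above the other 9 (log2 fold change against 0 h 1.78 ± 0.211, adjusted p = 0.000674).

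The bHLH78 homolog HORVU.MOREX.r2.7HG0567160.1 (7H, 198037736 to 198039626) went the other way. It held 11.1, 10.9 and 11.7 CPM at 0 h, 12, 12.2 and 12.6 at 30 min, 11, 9.66 and 9.88 at 1 h, then 4.05, 4.99 and 5.90 at 3 h, a log2 fold change of -1.17 ± 0.157 (edgeR adjusted p = 0.00159). The replicates were close together at every time and the 3 h libraries were the 3 lowest. The bHLH62 homolog HORVU.MOREX.r2.2HG0131980.1 (2H, 421783637 to 421786174) was more scattered, at 7.02, 9.75 and 14.1 CPM at 0 h, 8.54, 15.9 and 15.9 at 30 min, 10.4, 11.7 and 11.7 at 1 h, then 1.70, 4.22 and 3.88 at 3 h. It fell by 1.66 ± 0.361 on the log2 scale against 0 h (edgeR adjusted p = 0.0330) and by 1.78 ± 0.361 against 1 h (0.0263). Its 3 h libraries were again the lowest of all. The call against 0 h did not survive the loss of replicate 2 or 3 of 0 h, of replicate 1 or 2 of 1 h or of any library of 3 h (adjusted p up to 0.140), and the call against 1 h without any library of 1 h or 3 h (up to 0.104). Over the time course it was called in 3 of the 12 fits that left out 1 library (up to 0.145).

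The bHLH74 homolog HORVU.MOREX.r2.4HG0283050.1 (4H, 26736827 to 26738552) fell between 1 h and 3 h, from 27.1, 22.5 and 22.3 CPM to 10.1, 10.6 and 13.6 CPM (log2 fold change -1.06 ± 0.169, edgeR adjusted p = 0.00696). Its 0 h libraries lay between, at 16.5, 19.0 and 19.5 CPM, and against them the decrease did not pass (-0.68 ± 0.168, adjusted p = 0.0624), though it did with the replicate number as a block (adjusted p = 0.0285). The time course call of this gene was lost without replicate 1 or replicate 2 of 1 h or of 3 h (adjusted p 0.0596 to 0.130). The other 5 members of the branch, among them 3 bHLH49 homologs, had log2 fold changes at 3 h from -0.59 to 0.34 and were not called. The plot of log2 fold changes by class sets this spread beside the other classes.

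**Figure D2:**
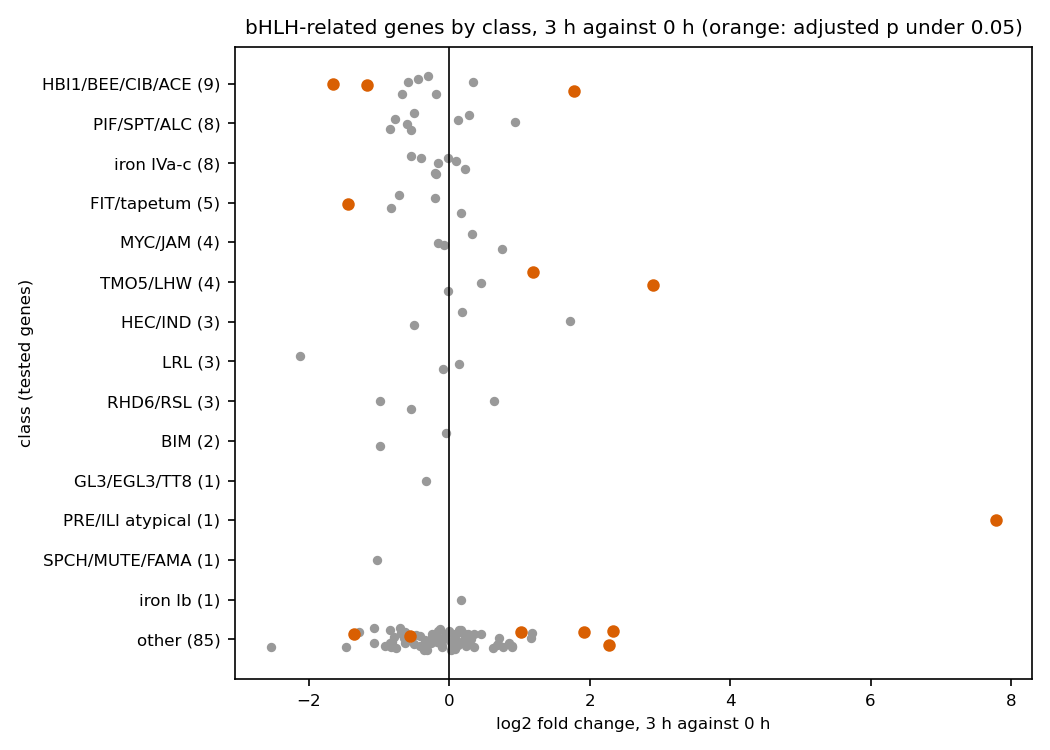
Each point is one of the 138 tested members, placed by class (number tested in brackets, vertical position within a class is arbitrary) and by its log2 fold change at 3 h against 0 h; orange points have an edgeR adjusted p under 0.05. The HBI1/BEE/CIB/ACE class holds orange points on both sides of 0, and the PRE6-like gene stands alone at 7.78, a fitted value that depends on the prior count because 0 h holds 2 reads in all.

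The class named for TMO5 and LHW, which in Arabidopsis pair to drive divisions in young vascular tissue, had 4 members. Of these, 2 were called higher at 3 h against 0 h, where 1.68% of all tested genes were. The bHLH30 homolog HORVU.MOREX.r2.5HG0401530.1 (5H, 458357709 to 458360165) is similar to a gene also known in Arabidopsis as TMO5-LIKE1. It was at 29.2, 26.0 and 23.5 CPM at 0 h, 25.1, 23.6 and 26.8 at 30 min, 33.7, 25 and 32.7 at 1 h, then 58.0, 60.5 and 60.6 at 3 h. The 3 h values lay within 3 CPM of each other and far above the rest (log2 fold change 1.19 ± 0.139, edgeR adjusted p = 0.000623 against 0 h; 0.97 ± 0.138, 0.00401 against 1 h).

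The bHLH107 homolog HORVU.MOREX.r2.2HG0164380.1 (2H, 629011307 to 629012094) was scarce, with 0.193 to 0.686 CPM in the first 9 libraries and 1.33, 3.24 and 2.81 CPM at 3 h. Its log2 fold change against 0 h was 2.91 ± 0.554 (edgeR adjusted p = 0.0155). That call was lost without any single library of 0 h or without replicate 2 or 3 of 3 h (adjusted p 0.0584 to 0.0682), and the time course call without replicate 2 or 3 of 3 h (0.127 and 0.103). Against 1 h the adjusted p was 0.0524, and 0.00297 with the replicate block. The other 2 members of the class did not pass: the bHLH106 homolog HORVU.MOREX.r2.5HG0435800.1 had a log2 fold change of 0.45 and a second bHLH30 homolog, HORVU.MOREX.r2.3HG0203290.1, one of -0.02.

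Among members without a class, both homologs of Arabidopsis bHLH144 were called, in opposite directions. HORVU.MOREX.r2.7HG0591480.1 (7H, 487301198 to 487303672) had the smallest time course p of all members. It stood at 29.1, 26.8 and 16.5 CPM at 0 h, 26.3, 24.3 and 25.7 at 30 min, 41.6, 29.1 and 38.5 at 1 h, then 116, 119 and 129 at 3 h, a rise of 2.34 ± 0.206 on the log2 scale (edgeR adjusted p = 0.000118). HORVU.MOREX.r2.4HG0339140.1 (4H, 591911683 to 591912399) stood at 7.79, 7.96 and 5.72 CPM at 0 h, 6.21, 6.49 and 7.09 at 30 min, 4.47, 4.14 and 4.84 at 1 h, then 2.48, 3.24 and 2.60 at 3 h. It fell by 1.36 ± 0.194 (adjusted p = 0.00242). In both genes the 3 libraries of 3 h lay outside the range of the other 9. At 0 h the mean FPKM of the first was 25.4 and of the second 9.98, and at 3 h the means were 128 and 3.87 FPKM.

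The remaining risers without a class were 3. HORVU.MOREX.r2.4HG0324860.1 (4H, 503065372 to 503067891), for which the table lists only a rice homolog, went from 5.54, 6.51 and 5.66 CPM at 0 h through 7.58, 7.47 and 11.2 at 1 h to 17.6, 23.4 and 25.7 at 3 h (log2 fold change 1.91 ± 0.221, edgeR adjusted p = 0.000595). Against 1 h it was called as well (1.34 ± 0.216, 0.00742), except without replicate 2 of 1 h (0.0503). The homolog of At5g57780, HORVU.MOREX.r2.6HG0472110.1 (6H, 121756049 to 121756899), rose from 2.32, 4.38 and 4.27 CPM at 0 h to 15.6, 20.2 and 18.1 at 3 h (2.28 ± 0.264, 0.000595), and its 30 min and 1 h libraries ran from 3.77 to 6 CPM.

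A homolog of bHLH112, a gene tied to stress tolerance in Arabidopsis, rose less (HORVU.MOREX.r2.1HG0054180.1, 1H, 443186593 to 443188395). It measured 17.1, 17 and 19.8 CPM at 0 h, 15.7, 26.8 and 20.4 at 30 min, 25.9, 23.4 and 25 at 1 h, then 25.9, 37.7 and 45.1 at 3 h, a log2 fold change of 1.01 ± 0.218 (edgeR adjusted p = 0.0318). Replicate 1 of 3 h lay within the range of the 30 min and 1 h libraries. The call was lost in fits that left out any 1 library of 0 h, replicate 3 of 30 min, replicate 1 or 2 of 1 h, or replicate 2 or replicate 3 of 3 h (adjusted p 0.0501 to 0.138). HORVU.MOREX.r2.2HG0165840.1 and HORVU.MOREX.r2.2HG0173220.1 are also bHLH112 homologs, and their estimates at 3 h were negative. They were -0.50 and -0.25 against 0 h, and -0.76 and -0.98 against 1 h (edgeR adjusted p = 0.278 and 0.0816 against 1 h). HORVU.MOREX.r2.2HG0173220.1 was called against 1 h with the replicate block (0.00553) and by DESeq2 (0.0117).

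**Figure D3:**
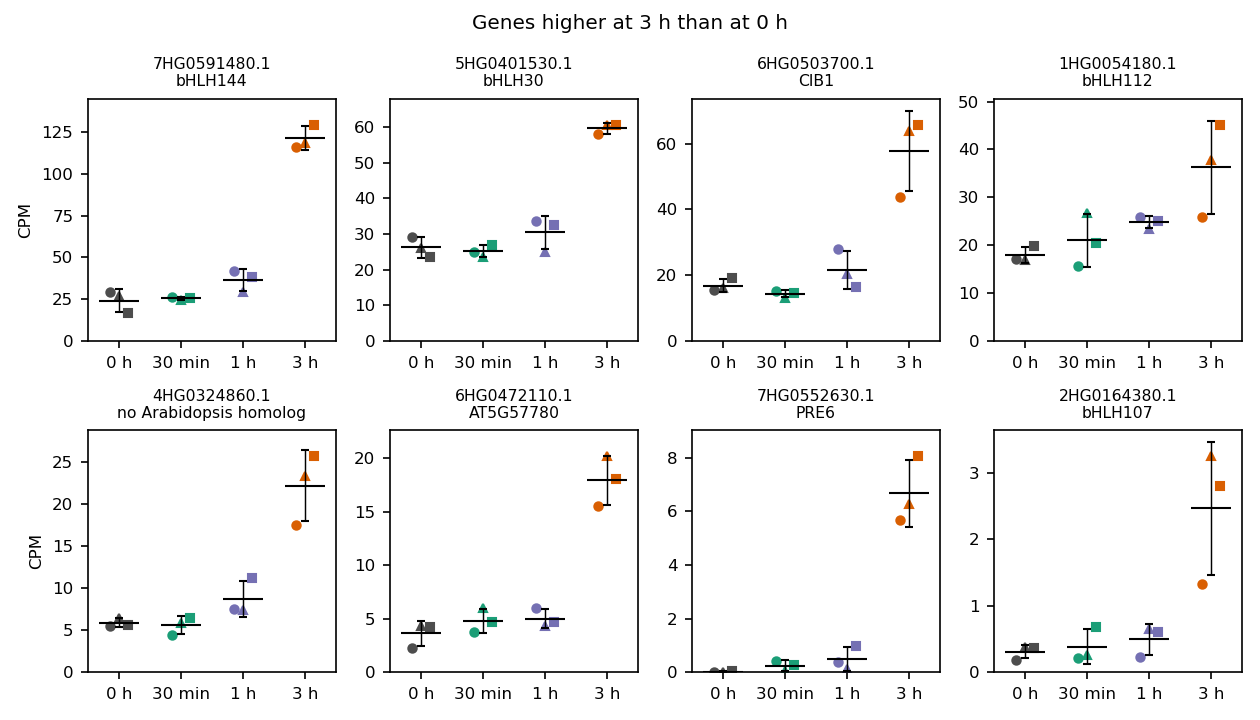
CPM (linear axis from 0) of the 8 members called higher at 3 h than at 0 h, by time; circles, triangles and squares are replicates 1, 2 and 3, and bars give the mean and SD of 3 libraries. In 7 of the 8 panels every 3 h point lies above all earlier points; in 1HG0054180 replicate 1 of 3 h does not.

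The iron branch was represented by 1 call. The homolog of FIT, which switches on iron uptake in Arabidopsis roots, fell by 3 h (HORVU.MOREX.r2.2HG0133330.1, 2H, 434650209 to 434651599). It measured 8.88, 7.65 and 7.44 CPM at 0 h, 6.32, 6.37 and 6.60 at 30 min, 6.88, 4.83 and 5.52 at 1 h, then 3.73, 2.72 and 2.39 at 3 h. The 0 h libraries were the 3 highest and the 3 h libraries the 3 lowest. The log2 fold change at 3 h was -1.44 ± 0.209 against 0 h (edgeR adjusted p = 0.00271), and this call held in all 12 fits that left out 1 library. Against 1 h it was -0.96 ± 0.208 (0.0366), which passed in 3 of the 12 and was lost without replicate 2 or 3 of 0 h or of 30 min, any library of 1 h, or replicate 2 or replicate 3 of 3 h (adjusted p up to 0.151). With all genes of at least 1 read in the test it did not pass either (0.0531). The time course call was lost without replicate 2 or 3 of 3 h (0.0879 and 0.0793).

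None of the 8 tested members of the ILR3 and bHLH25 type was called by edgeR without the replicate block, nor was the single ORG2 homolog. The bHLH25 homolog HORVU.MOREX.r2.5HG0441410.1 was high in replicate 2 of 30 min and of 1 h (12.5 and 14.1 CPM), at 2.27 and 5.07 CPM in replicate 1 of these times, and at 0.578 to 1.38 CPM in the other 8 libraries. DESeq2 called it over the time course (adjusted p = 0.0177) and at 3 h against 1 h (0.0288), where edgeR gave 0.282 and 0.204. Another bHLH25 homolog, HORVU.MOREX.r2.4HG0278310.1, had its 3 lowest libraries at 3 h (3.31, 2.64 and 2.31 CPM) and did not pass against 0 h (-0.54 ± 0.223, edgeR adjusted p = 0.386) or against 1 h (-0.86 ± 0.222, 0.0821). Against 1 h it was called with the replicate block (0.0209) and by DESeq2 (0.0134). Among 26 tested genes with words of grass iron uptake in their descriptions (nicotianamine, mugineic acid, yellow stripe, iron transport, ferritin) only a ferritin gene, coding for an iron store, was called. It was called higher at 3 h against 0 h, where 1.68% of all genes were. HORVU.MOREX.r2.5HG0385340.1 stood at 154, 150 and 156 CPM at 0 h and 196, 224 and 276 CPM at 3 h (0.60 ± 0.136, adjusted p = 0.0411). Its 30 min and 1 h libraries, at 184 to 233 CPM, were already above 0 h.

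The last faller was HORVU.MOREX.r2.7HG0564200.1 (7H, 174366177 to 174368104), similar to AT2G42280. It was at 53.4, 43.5 and 49.2 CPM at 0 h, 48.9, 56.4 and 45.4 at 30 min, 39.7, 37.4 and 39.4 at 1 h, then 30.8, 33.7 and 35.0 at 3 h. All 3 h values were below all others, but the step was small (log2 fold change -0.55 ± 0.124, edgeR adjusted p = 0.0377). The call passed in 3 of the 12 fits that left out 1 library (adjusted p up to 0.139), those without replicate 2 of 0 h, replicate 2 of 30 min or replicate 3 of 30 min, and it did not pass with all genes of at least 1 read in the test (0.0723).

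**Figure D4:**
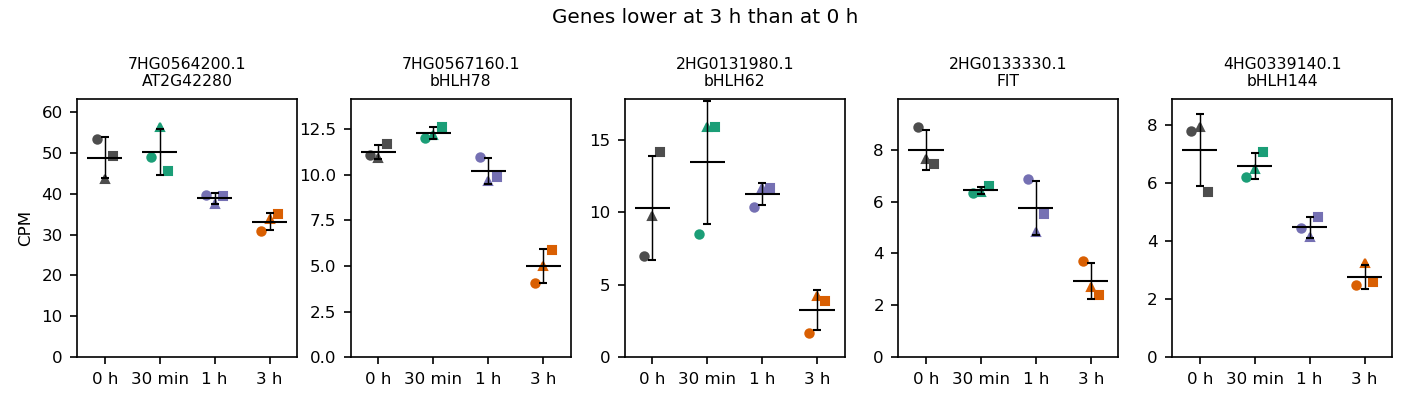
CPM (linear axis from 0) of the 5 members called lower at 3 h than at 0 h, by time; circles, triangles and squares are replicates 1, 2 and 3, and bars give the mean and SD of 3 libraries. In each panel all 3 points of 3 h lie below all points of the other times.

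Chlorophyll a-b binding protein genes, a marker list of green leaf and stem tissue, were lower at 3 h too. Their summed level ran from 4135 to 5306 CPM at 0 h, 3397 to 4049 at 30 min, 3349 to 4405 at 1 h and 2615 to 2965 at 3 h. At 3 h against 0 h 17 of 33 tested genes of the list were called lower (0.799% of all genes) and 0 higher (1.68% of all genes). Of its 37 genes, 2 were at 0 in all libraries. The part of this change in the members' decreases was not tested. Summed levels of the other lists overlapped between 0 h and 3 h for shoot meristem KNOX genes (248 to 277 and 198 to 275 CPM), root hair genes (95.8 to 120 CPM at 0 h, and up to 119 CPM at 3 h) and grain storage genes (from 88.7 CPM at 0 h and 85.4 to 124 CPM at 3 h). Phloem genes were at 29.6 to 32.3 CPM at 0 h and 36.8 to 47.6 CPM at 3 h, with 1 of 4 tested genes called higher (1.68% of all genes). No gene matched the words for xylem.

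By the rule given below, same-numbered libraries at 3 h deviated together with those at 0 h and at 1 h. Some pairs of different numbers were also over 0.1 there, up to 0.257 and 0.104. With the replicate number as a block, 20 members were called at 3 h against 0 h (11 higher and 9 lower) in place of 13, where 5.09% of all genes were. Against 1 h the blocked count was 27 (11 higher and 16 lower) in place of 13, where 6.79% of all genes were. The count against 1 h also rested on single libraries: it was 8 without replicate 1 of 1 h, 6 without replicate 2 of 1 h, and 7 without replicate 2 or without replicate 3 of 3 h. The shares of all genes called in these fits are not given here. Among members called at 3 h against 0 h with the block and not without was the bHLH137 homolog HORVU.MOREX.r2.7HG0568640.1 (edgeR adjusted p = 0.00405), which was picked after its values were seen. It stood at 9.91, 10.6 and 4.47 CPM at 0 h and 23.5, 18.3 and 13.5 CPM at 3 h, with replicate 3 the lowest at all 4 times.

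A second, smaller set of members was highest at 30 min and 1 h and back near the 0 h level at 3 h. In 4 members (2.90%) all 6 libraries of 30 min and 1 h lay above all 6 of 0 h and 3 h, as they did in 0.666% of all tested genes. Of these, 3 were called over the time course. The fourth, HORVU.MOREX.r2.3HG0258420.1, moved from 35.2 to 45.5 CPM at 0 h to 48.6 to 59.1 CPM and was not called (edgeR adjusted p = 0.278). The reverse order was seen in 1 member (0.249% of all genes), the IND homolog HORVU.MOREX.r2.7HG0550510.1, which was not called either (0.28). Its 6 libraries of 30 min and 1 h held 2.72 to 4.42 CPM and the other 6 held 4.58 to 6.50 CPM.

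Among these 4 the widest swing was in HORVU.MOREX.r2.2HG0131040.1 (2H, 410065989 to 410067899), for which the table lists a rice homolog without a name and no Arabidopsis one. Its libraries measured 2.00, 0.457 and 3.71 CPM at 0 h, 34.7, 186 and 33.9 at 30 min, 27.0, 140 and 39.8 at 1 h, then 1.61, 5.76 and 2.27 at 3 h. Replicate 2 stood far above replicates 1 and 3 at 30 min and at 1 h, and all 6 of these libraries were above the other 6. The gene was called over the time course (edgeR adjusted p = 0.0135) and at 3 h against 1 h (log2 fold change -4.42 ± 0.965, adjusted p = 0.0383). The estimates of 5.33 ± 1.01 at 30 min and 5.04 ± 1.00 at 1 h, both against 0 h, did not pass (0.314 and 0.179). Without replicate 2 of 30 min the estimate at 30 min was 4.03, and without replicate 2 of 1 h that at 1 h was 3.99. The call against 1 h was lost without replicate 1 of 0 h or any one library of 1 h or 3 h (adjusted p 0.0530 to 0.149), and the time course call without replicate 3 of 3 h (0.0546).

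HORVU.MOREX.r2.3HG0181460.1 (3H, 93980 to 94779), similar to AT1G10585, followed the same order of times. It held 6.18, 6.43 and 10.9 CPM at 0 h, 19.9, 56.1 and 22.4 at 30 min, 14.3, 22.9 and 19.3 at 1 h, then 4.74, 5.07 and 4.95 at 3 h. Replicate 2 was again the highest at 30 min, and the 3 h libraries were the 3 lowest of all. The time course call (edgeR adjusted p = 0.00572) held in all 12 fits that left out 1 library. The decrease from 1 h to 3 h, -1.94 ± 0.383 (0.0233), fell away without replicate 2 or 3 of 1 h or any library of 3 h (0.0605 to 0.106). A neighbour 4 gene places along the chromosome, HORVU.MOREX.r2.3HG0181500.1, is also a member. It was lower at 0.371 to 2.12 CPM and was not called over the time course (0.231), though DESeq2 called it (0.0443). From 1 h to 3 h its log2 fold change was -1.75 ± 0.446 (edgeR adjusted p = 0.0785). That decrease passed with the replicate block (0.0253) and in DESeq2 (0.00874).

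The bHLH92 homolog HORVU.MOREX.r2.5HG0423110.1 (5H, 532798794 to 532800769) was the third. Arabidopsis bHLH92 responds to salt and osmotic stress, and the table names its rice homolog BHLH148, which in rice interacts with jasmonate ZIM-domain (JAZ) repressors. It stood at 2.83, 1.94 and 4.30 CPM at 0 h, 7.76, 20.6 and 10.6 at 30 min, 7.58, 18.2 and 13.2 at 1 h, then 2.99, 4.87 and 2.60 at 3 h, with replicate 2 highest at 30 min, 1 h and 3 h. The time course call (edgeR adjusted p = 0.0259) passed in 6 of the 12 fits that left out 1 library and was lost in those without replicate 1 or replicate 2 of 0 h, replicate 2 or replicate 3 of 1 h, or replicate 1 or 3 of 3 h (0.0525 to 0.0805). Against 1 h the 3 h value was -1.90 ± 0.445 (0.0545, and 0.00934 with the replicate block).

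The homolog of MYC2, the main activator of jasmonate responses in Arabidopsis, had its highest means at 30 min and 1 h. It did not pass in edgeR without the replicate block. HORVU.MOREX.r2.1HG0041620.1 (1H, 355760678 to 355762732) was at 27.6, 36.6 and 46.3 CPM at 0 h, 44.9, 160 and 77.3 at 30 min, 57.4, 87.2 and 84.3 at 1 h, then 24.8, 33.0 and 41.1 at 3 h. All 1 h libraries lay above all of 0 h, and at 30 min replicate 1 fell within the 0 h range. The log2 fold change at 30 min was 1.35 ± 0.392 (edgeR adjusted p = 0.697), and 0.73 without replicate 2 of 30 min. From 1 h to 3 h it was -1.21 ± 0.391 (0.163), which passed with the replicate block (0.0172). Over the time course the adjusted p was 0.124 in edgeR, 0.00998 in edgeR with the replicate block and 0.0032 in DESeq2.

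The homolog of the ABA-inducible bHLH-type factor, in Arabidopsis a repressor of jasmonate responses, reached 34.1 CPM in replicate 2 of 30 min (HORVU.MOREX.r2.3HG0235270.1). Its replicates 1 and 3 at 30 min were at 9.26 and 9.11 CPM and its 0 h libraries at 4.31, 3.43 and 7.13 CPM (1.81 ± 0.483, edgeR adjusted p = 0.629; 0.88 without replicate 2 of 30 min). The bHLH13 homolog of the class lay within 0.14 of its 0 h level on the log2 scale at every time. A second MYC2 homolog, HORVU.MOREX.r2.5HG0412360.1, was at the edge of detection with 0.0381 to 1.95 CPM.

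Jasmonate ZIM-domain and TIFY genes, whose products bind and hold back MYC2 in Arabidopsis, had their largest median rise at 30 min. Their summed level was not highest there. It ran from 277 to 354 CPM at 0 h, 353 to 615 at 30 min, 409 to 636 at 1 h and 240 to 426 at 3 h. Of 22 described genes 13 were tested, and all 13 had estimates above their 0 h level at 30 min. The median of these log2 fold changes was 3.57 (all tested genes -0.01), and at 1 h it was 0.72, with 11 of the 13 above their 0 h level (all tested genes -0.00). At 30 min and at 1 h 0 of them were called (0.00401% and 0.0963% of all genes), and over the time course 7 (2.3% of all genes). Of these 7, 5 lie on 7H between HORVU.MOREX.r2.7HG0555330.1 and HORVU.MOREX.r2.7HG0555400.1 and had their 3 highest libraries at 30 min, such as HORVU.MOREX.r2.7HG0555340.1 with 0.386, 0.533 and 1.92 CPM at 0 h, 9.32, 16.1 and 20.5 at 30 min and 2.09, 1.02 and 2.91 at 1 h. HORVU.MOREX.r2.5HG0398310.1 was high at both times, with 5.47, 3.27 and 12 CPM at 0 h, 19.6, 70.4 and 35.5 at 30 min, 34.1, 81.1 and 58.1 at 1 h, then 4.79, 9.57 and 8.75 at 3 h, and it fell by 2.90 ± 0.564 from 1 h to 3 h (edgeR adjusted p = 0.0217). Replicate 2 was the highest library of both times in that gene, and of 30 min in the seventh, HORVU.MOREX.r2.2HG0135180.1. Of the 5 genes on 7H, 4 had replicate 3 as the highest library of 30 min and 1 had replicate 2. Replicate 2 was highest of all 12 libraries for 19 members at 30 min (13.8%, against 8.87% of all genes) and for 23 members at 1 h (16.7%, against 5.96%). Its part in the members' levels at these times was not tested beyond the values without it given above.

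**Figure D5:**
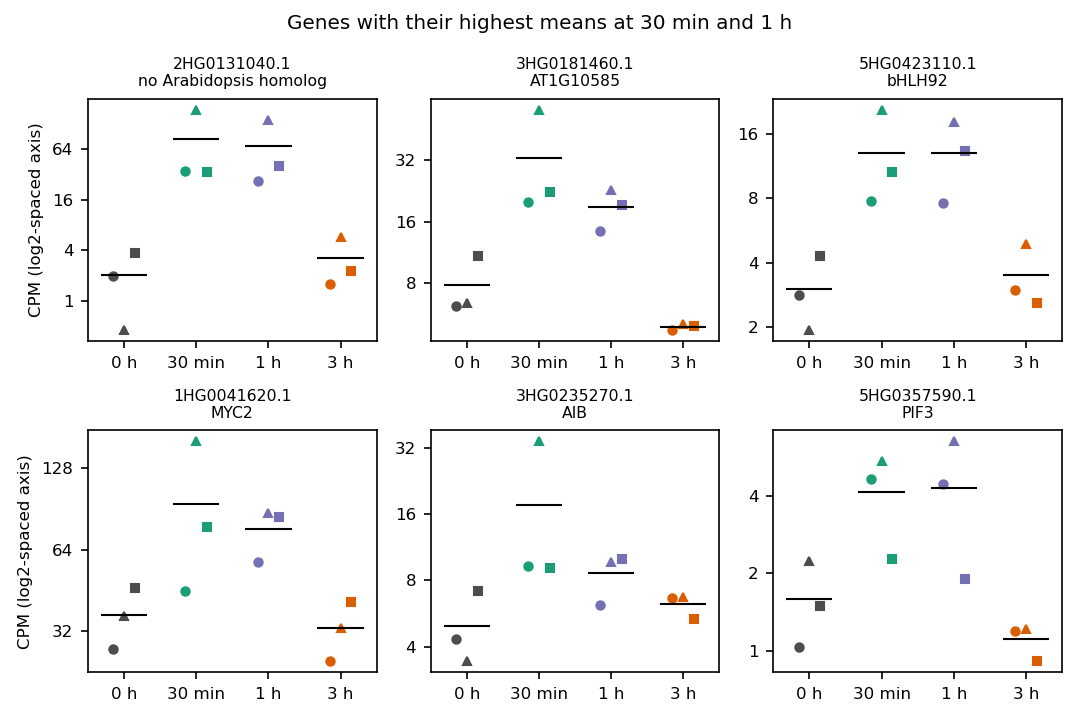
CPM (log2-spaced axis, which differs between panels) of 6 members with high values at 30 min and 1 h, by time; circles, triangles and squares are replicates 1, 2 and 3, and bars give the mean of 3 libraries. In the upper row all points of 30 min and 1 h lie above those of 0 h and 3 h; in the lower row the times overlap. The triangle of replicate 2 is the highest point at 30 min in all 6 panels.

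The light branch gave 1 call among 8 members of the PIF type, at 3 h against 1 h, where 2.08% of all genes were called. The homolog of PIF5, a growth-promoting factor that phytochrome removes in light, rose between 1 h and 3 h (HORVU.MOREX.r2.5HG0428620.1, 5H, 549595837 to 549598889). It was at 1.95, 1.61 and 2.23 CPM at 1 h, then 3.31, 4.38 and 5.32 at 3 h (log2 fold change 1.16 ± 0.258, edgeR adjusted p = 0.0410), with 1.79 to 2.80 CPM at the earlier times. All 3 h libraries were above the other 9, yet the call was lost without replicate 1 of 0 h, any library of 30 min or 1 h, or replicate 2 or 3 of 3 h (adjusted p 0.0522 to 0.184). It was also lost with all genes of at least 1 read in the test (0.0624). Against 0 h the difference was 0.94 ± 0.256 (edgeR adjusted p = 0.1, and 0.0249 with the replicate block). The PIF3 homolog HORVU.MOREX.r2.5HG0357590.1 fell back from 4.47, 6.55 and 1.90 CPM at 1 h to 1.20, 1.22 and 0.908 at 3 h without passing (-1.95 ± 0.476, 0.0641; 0.00735 with the block).

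Of 13 tested genes described with the word phytochrome, 1 was called. Its calls were over the time course (2.3% of all genes) and at 3 h against 0 h (2.48%) and 1 h (2.08%). This was the phytochrome B gene HORVU.MOREX.r2.3HG0201740.1, a red-light receptor, at 18.4, 11.5 and 19.0 CPM at 0 h, 10.5, 19.7 and 17.2 at 1 h, then 129, 65.6 and 61.4 at 3 h. Its rise was 2.38 ± 0.390 against 0 h (edgeR adjusted p = 0.0062) and 2.43 ± 0.390 against 1 h. No gene was called among 8 tested brassinosteroid genes, 2 DELLA genes and 12 TCP genes, lists that hold partners or regulators of bHLH proteins, in any of the 5 comparisons by edgeR. At an unadjusted p under 0.05 over the time course there were 0, 1 and 2 of them.

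No member of the root hair, tapetum, HEC and BIM branches was called, the FIT homolog aside, and most were scarce. The RHD6 homolog HORVU.MOREX.r2.3HG0182490.1 of the root hair class was at 2.72 ± 1.83 CPM (SD, n = 3) at 0 h and 1.90 ± 0.250 at 3 h. The bHLH54 homolog HORVU.MOREX.r2.4HG0286250.1 of the same class was at 0.581 ± 0.457 CPM and 0.948 ± 0.343. Of the class of LJRHL1-like genes, known from root hair growth, HORVU.MOREX.r2.5HG0400770.1 was at 16.4 ± 2.75 and 15.4 ± 2.45 CPM. In HORVU.MOREX.r2.7HG0546900.1 of that class replicate 3 stood apart at 0 h, 30 min and 1 h, with 1.87, 1.26 and 1.39 CPM against at most 0.293 CPM in the other 9 libraries.

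Homologs of tapetum regulators were also scarce: the bHLH89 homolog HORVU.MOREX.r2.6HG0502820.1 had 1.31 ± 0.310 CPM at 0 h and 0.793 ± 0.340 at 3 h. The HEC1 homolog HORVU.MOREX.r2.5HG0402770.1, related to regulators of carpel growth, was low in the first 9 libraries (0.140 to 0.474 CPM) and higher in the 3 of 3 h (0.552, 0.892 and 1.28 CPM) without passing (1.72 ± 0.496, edgeR adjusted p = 0.124). BIM2, a partner of brassinosteroid factors in Arabidopsis, had 2 homologs. HORVU.MOREX.r2.6HG0506930.1 was at 4.45 ± 1.41 CPM at 0 h and 2.24 ± 0.712 at 3 h (adjusted p = 0.322), and HORVU.MOREX.r2.7HG0591750.1 at 5.05 ± 0.774 and 4.92 ± 0.921. The SPCH homolog HORVU.MOREX.r2.7HG0587740.1, alone in its class, was at 2.7, 3.27 and 1.53 CPM at 0 h and 1.15, 1.42 and 1.07 at 3 h (log2 fold change -1.03 ± 0.369, adjusted p = 0.265). The TT8 homolog HORVU.MOREX.r2.2HG0156270.1, also alone, was at 0.411 ± 0.133 and 0.329 ± 0.287 CPM.

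Within 10 gene places of each other lay 5 pairs of members. The early gene HORVU.MOREX.r2.2HG0131040.1 lies 6 places from the bHLH35 homolog HORVU.MOREX.r2.2HG0130980.1, which was at 1.24 to 5.80 CPM and was not called over the time course (edgeR adjusted p = 0.918). On 4H the pair HORVU.MOREX.r2.4HG0346040.1 and HORVU.MOREX.r2.4HG0346050.1 is adjacent, 11237 bases apart. The first, another bHLH35 homolog, held 3.47 to 7.54 CPM and the second, similar to AT1G10586, 5.86 to 21.3 CPM, and neither was called (0.823 and 0.263).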

How the data were processed

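Crown RNA, selected for poly(A), was sequenced in 12 libraries (4 times, 3 each, independent biological replicates per the series' design text) as paired reads of 150 bases from a directional kit, per the labels. Tools named in the submitters' processing notes are bcl2fastq, SAMtools, HISAT2 2.0.5 and Subread 1.5.2. Build, strand and multi-mapping settings were not stated in the sources used here, so reads of near-identical paralogs may be split or lost. The authors deposited raw read counts per gene without normalization. Gene descriptions, homologs, coordinates and lengths come from their deposited tables, and the authors' FPKM and fold changes were not used.

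Counts were fitted in edgeR 4.0.16 (R 4.3.3, TMM, filterByExpr with minimum count 10 and minimum total 15, quasi-likelihood test, 1 model of 4 times with 8 residual degrees of freedom), with p-values adjusted over 24920 genes and called under 0.05. The standard error is the log2 fold change over the root of F. CPM are TMM-scaled, and FPKM are these per kilobase, not the authors'. At 3 counts a gene stands at 0.0849 to 0.193 CPM, depending on the library. P-values measure the spread between the pools of each time. The methods given state no block, so whether the pools came from 1 experiment or several is not known here. DESeq2 1.42.0, other scaling, filters, a replicate block and leaving out each library were alternatives. The fit was tested on simulated data.

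Same-numbered libraries deviated together (correlation of residuals over 0.1 in every pair) for 30 min against 0 h (0.450 to 0.641), 3 h against 0 h (0.203 to 0.595) and 3 h against 1 h (0.139 to 0.398). They did so in 2 of 3 pairs for 1 h against 0 h (0.0958 to 0.508) and in 17 of 18 over all times. Pairs of different numbers ran from -0.430 to 0.0764 for 30 min against 0 h and -0.383 to 0.164 for 1 h against 0 h. For 3 h they ran from -0.566 to 0.257 against 0 h and -0.319 to 0.104 against 1 h. Replicates were no duplicates (chi-square per degree of freedom from 16.6).

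The members, classes and lists were chosen with earlier results of these data known. Named are all called members, the PRE6-like gene, the 5 most abundant, and called genes of the pathway lists. Also named are the 2 members with the smallest time course p in each class of 2 or more tested members. The neighbours, the other bHLH30, bHLH106, bHLH13, bHLH112 and MYC2 homologs, and the SPCH and TT8 homologs were picked after their values were seen. So were HORVU.MOREX.r2.3HG0258420.1 and the bHLH137 homolog. Sequences were not used here.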

Additional observations from a re-analysis of the deposited data

How the results depend on the processing

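RLE size factors and a filter of 10 reads in 3 libraries left all 5 counts of called members within 1.5 times. DESeq2 called 33 members over the time course in place of 15, 4 at 30 min and 2 at 1 h in place of 0, 21 at 3 h against 0 h (11 higher) and 27 at 3 h against 1 h (10 higher) in place of 13 each. DESeq2 also called more of all genes in these, 6.38% over the time course, 4.47% against 0 h and 5.45% against 1 h. With all genes of at least 1 read in the test, 1 member was called at 1 h (0.0884% of all genes). With the replicate block the counts were 25 over the time course (5.8% of all genes), 0 at 30 min (0.012%) and 1 at 1 h (0.265%). The last was HORVU.MOREX.r2.2HG0131040.1 (edgeR adjusted p = 0.0273). At 3 h the blocked counts were 20 against 0 h (5.09% of all genes) and 27 against 1 h (6.79%). No call of a named gene was lost under the block, and the cause of the higher counts was not tested. The MYC2 homolog HORVU.MOREX.r2.1HG0041620.1 passed over the time course with the block (0.00998). For 1 h against 0 h and the time course 2 of 3 and 17 of 18 same-numbered pairs were over 0.1. The rule of every pair over 0.1 was therefore not met there. Leaving out 1 library gave 10 to 18 members over the time course, 0 at 30 min and at 1 h, 9 to 14 at 3 h against 0 h and 6 to 14 at 3 h against 1 h. Shares of all genes called without single libraries are not given here. In the comparisons in which a gene was called, its estimate kept its sign under the alternatives run. In others, signs could change: the estimate of HORVU.MOREX.r2.2HG0131040.1 at 3 h against 0 h, which was not called, ran from -0.11 to 1.52 without single libraries. Members with few reads, such as the PRE6-like gene at 0 h, have wide counting intervals.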
